A study of Homo sapiens with 18 samples.

Results

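Tubulin mRNAs were followed in a table of fitted RNA half-lives and synthesis rates from HEK293T, an established line of human embryonic kidney cells, treated with DMSO or with STM2457, a small-molecule inhibitor of the m6A methyltransferase METTL3. The genes were chosen by symbol from a list of 10 alpha, beta and gamma tubulins, and 9 of the 8996 genes in the table matched: the alpha tubulins TUBA1A, TUBA1B, TUBA1C and TUBA4A, the beta tubulins TUBB2A, TUBB2B, TUBB4B and TUBB6, and the gamma tubulin TUBG1. TUBB was absent from the table, by symbol and by Ensembl identifier, and is not analysed here. Wild-type cells were exposed to STM2457 or its solvent for 3 h, and then to 100 µM 4-thiouridine (s4U) for 90 or 180 min, or to no s4U, with 3 samples for each of the 6 combinations, 18 in all. In SLAM-seq, s4U is taken up into newly made RNA and read as T-to-C conversions after alkylation. For each gene the table gives 1 half-life and 1 synthesis rate in each treatment, so there are no replicate values, no error and no test, and every difference below is between 2 fitted values. Depth per sample is unknown. Hours are inferred as the unit, since no half-life exceeds 69.3, the value for a decay rate of 0.01; this is called the ceiling below. A gene is called longer-lived where its half-life rose more than 1.5-fold in STM2457, and shorter-lived where it fell by as much. The table holds no expression levels: 7 of 9 genes taken as markers of HEK293T had a row, KRT8 and PAX2 did not, and of 14 markers of other cell types only COL1A1 had one. METTL3 mRNA, whose protein is what the compound acts on, went from 4.00 to 3.51 h.

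Alpha and beta tubulin form the dimers of which microtubules are built, and gamma tubulin sits in the ring complexes that start microtubules. Alpha and beta tubulin mRNAs are known for autoregulated decay: when free dimers are in excess, the factor TTC5 binds the beginning of the tubulin chain as it leaves the ribosome, and through the adaptor SCAPER brings the CCR4-NOT deadenylase to the translated mRNA. This decay needs translation. The series title concerns m6A in coding regions and decay that depends on translation, and the tubulin values bear on mRNAs that have such a route of their own.

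The opening of each coding sequence is shown because it encodes the stretch that TTC5 reads. The lines give the first 30 coding bases of the APPRIS principal transcript in GENCODE release 29 (GRCh38), 5′ to 3′, with the first 4 codons in capitals.
TUBA1A: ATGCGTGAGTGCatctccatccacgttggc
TUBA1B: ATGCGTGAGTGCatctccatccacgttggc
TUBA1C: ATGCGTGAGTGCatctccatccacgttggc
TUBA4A: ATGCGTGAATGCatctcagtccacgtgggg
TUBB2A: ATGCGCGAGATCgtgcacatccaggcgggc
TUBB2B: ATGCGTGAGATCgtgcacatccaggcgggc
TUBB4B: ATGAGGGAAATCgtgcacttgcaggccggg
TUBB6: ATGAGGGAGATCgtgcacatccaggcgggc
TUBG1: ATGCCGAGGGAAatcatcaccctacagttg
The 4 alpha tubulins used 2 versions of the first 12 bases and the 4 beta tubulins used 4, and within each class all versions encoded the same 4 residues. TUBG1 opens with other codons. Of 8611 genes of the table with a coding sequence, 6 opened with codons for the beta residues: the 4 beta tubulins above, TUBB3 and TUBB4A. The alpha residues opened TUBA1A, TUBA1B and TUBA4A in that count, which used the transcript with the longest coding sequence; the longest of TUBA1C begins upstream with other codons.

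In DMSO, the tubulin mRNAs were long-lived. All 9 lay above the median half-life of 5.61 h over all genes, with a median of 14.3 h. The order from the longest was TUBA1A, TUBA1B, TUBA1C, TUBB2B, TUBB6, TUBA4A, TUBB2A, TUBB4B and TUBG1; with no spread between samples, it cannot be said which neighbours differ. TUBA1A, an alpha isotype best known from developing neurons, sat at the ceiling of 69.3 h, where 2.55% of all genes lay in DMSO. TUBA1B and TUBA1C, widely expressed alpha isotypes, had 41.2 and 30.5 h, with 96.0% and 94.4% of genes below them. TUBG1 had the lowest value, 8.29 h, still above 66.8% of genes.

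**Figure D1:**
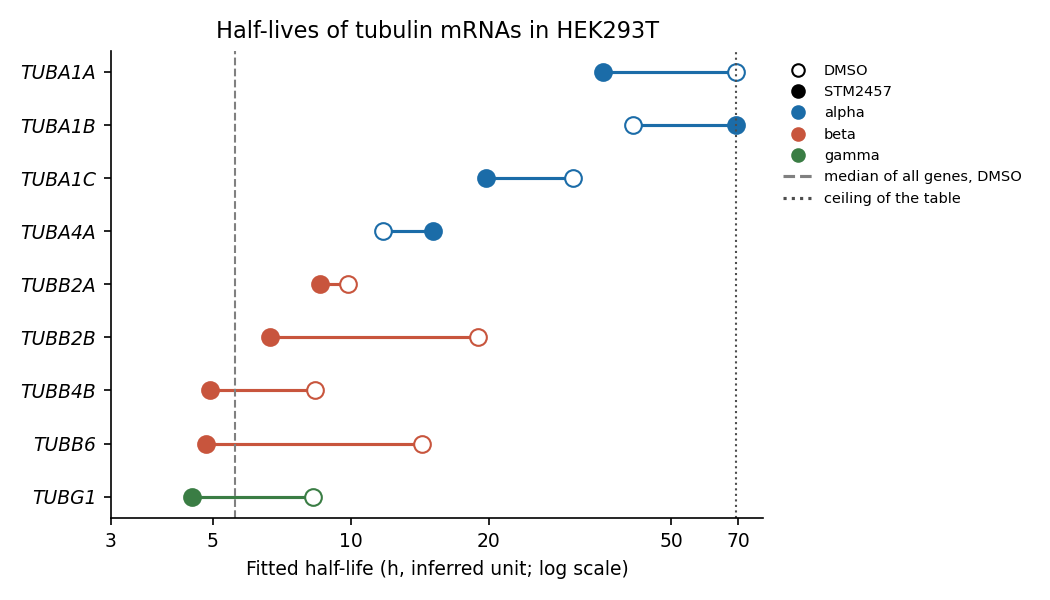
Fitted half-life of each tubulin mRNA in DMSO (open) and STM2457 (filled) on a log axis in hours, an inferred unit, with 1 value per gene and treatment. The 4 beta tubulins and TUBG1 lie to the left in STM2457, from 4.50 to 8.59 h, while TUBA1B moves right to the ceiling of 69.3 h.

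The main comparison asked how inhibition of METTL3 moved these half-lives. Of the 9 tubulins, 6 were shorter-lived in STM2457, 1 was longer-lived and 2 stayed within 1.5-fold, and the median log2 ratio was -0.76. Over all genes, 24.9% were shorter-lived and 28.5% longer-lived, with a median log2 ratio of -0.01. Of the 2989 genes with a DMSO half-life at least that of TUBG1, a range that holds all 9 tubulins, 40.0% were shorter-lived and 24.6% longer-lived, with a median of -0.28. The DMSO half-life is also the denominator of the ratio, so genes picked for a high value of it are not independent of the ratio, and error in the DMSO fits alone could raise their share of shorter-lived genes.

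Beta tubulins moved one way, 3 of 4 past 1.5-fold. TUBB6 (ENSG00000176014.12, chromosome 18, 12307669 to 12344320, plus strand), a beta isotype found in many tissues, went from 14.3 to 4.83 h, 2.97-fold shorter. TUBB2B (ENSG00000137285.10, chromosome 6, 3224261 to 3231730, minus strand), a beta isotype best known from the developing brain, went from 19.0 to 6.66 h, 2.85-fold shorter. Only 3.20% of all genes had a lower log2 ratio than TUBB6, and 3.57% a lower one than TUBB2B. TUBB4B (ENSG00000188229.6, chromosome 9, 137241213 to 137243707, plus strand), a widely expressed isotype that is also found in cilia, went from 8.36 to 4.94 h, 1.69-fold shorter. TUBB2A (ENSG00000137267.6, chromosome 6, 3153669 to 3157526, minus strand), a beta isotype abundant in brain, had 9.85 and 8.59 h, a log2 ratio of -0.20, within 1.5-fold. In DMSO the 4 beta half-lives spanned 8.36 to 19.0 h, and in STM2457 they spanned 4.83 to 8.59 h.

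Gamma tubulin followed the direction of the beta tubulins. TUBG1 (ENSG00000131462.8, chromosome 17, 42609676 to 42615234, plus strand) went from 8.29 to 4.50 h, 1.84-fold shorter, a log2 ratio of -0.88. It does not carry the opening codons of the alpha or beta class.

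Alpha tubulins were split. TUBA1A (ENSG00000167552.14, chromosome 12, 49184796 to 49189324, minus strand) fell from the ceiling to 35.5 h, a ratio of 1.95-fold shorter whose size is set by the ceiling. TUBA1C (ENSG00000167553.15, chromosome 12, 49188736 to 49274603, plus strand) went from 30.5 to 19.8 h, 1.54-fold shorter and close to the 1.5-fold rule. TUBA1B (ENSG00000123416.15, chromosome 12, 49127782 to 49131397, minus strand) was the only longer-lived one of the 9. It went from 41.2 h to the ceiling, 1.68-fold, again a size set by the ceiling. In STM2457, 10.9% of all genes lay at the ceiling, against 2.55% in DMSO. The same shares apply to the genes named below as reaching the ceiling. TUBA4A (ENSG00000127824.14, chromosome 2, 219249711 to 219278170, minus strand), an alpha isotype encoded away from that chromosome 12 group, had 11.8 and 15.1 h, a log2 ratio of 0.36, within 1.5-fold. With half-lives over 24 h set to 24 h, 0 tubulins were longer-lived and 4 were shorter-lived (TUBB6, TUBB2B, TUBB4B and TUBG1). The median log2 ratio of the 9 was then -0.28 in place of -0.76. This cap was not applied to all genes, so no share over all genes stands beside these values.

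New RNA was computed from these half-lives as a rough guide to what the labelling could resolve. For an mRNA at steady state, the share made during 180 min of s4U follows from the half-life alone. That state need not hold in STM2457. There the fitted rates would take TUBB6 to 0.598-fold of the DMSO level by 6 h after the compound, against an end point of 0.303-fold. The STM2457 shares given here are steady-state values, and those in the cells may differ. For TUBB6 this share was 13.5% in DMSO and 35.0% in STM2457, and for TUBB2B it was 10.4% and 26.8%. For TUBG1 it was 22.2% and 37.0%. The alpha tubulins of chromosome 12 lay far lower: TUBA1A at 2.96% and 5.68%, TUBA1B at 4.92% and 2.96%, and TUBA1C at 6.58% and 9.98%. At steady state, the whole change of TUBA1B would correspond to 1.97 percentage points of new RNA, and after 90 min to 2.49% against 1.49%. Its fitted synthesis rate also rose 2.64-fold. The fitted rates would take it to 1.20-fold of the DMSO level by 6 h, against an end point of 4.44-fold. The share in the cells may therefore differ in size and in direction. No counts are in the table, so whether a gap of 1.97 percentage points exceeds the error of the measurement was not tested.

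**Figure D2:**
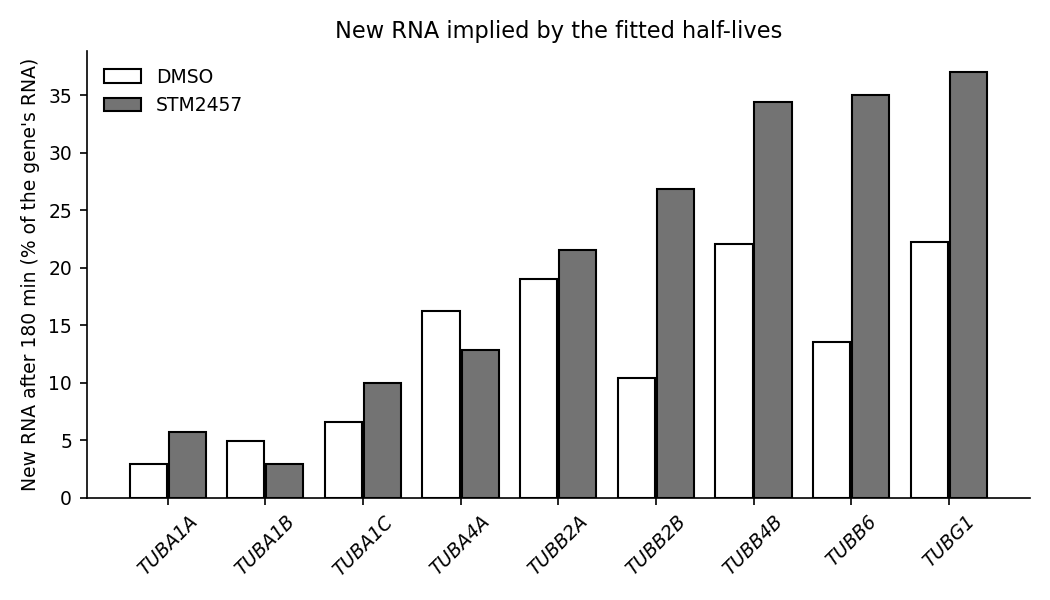
Share of each tubulin mRNA made within 180 min at steady state, in percent of that gene's RNA. It was computed from the fitted half-lives in DMSO (open bars) and STM2457 (grey bars). Steady state need not hold in STM2457. TUBB6 rises from 13.5% to 35.0%, while TUBA1A and TUBA1B stay under 6% in both treatments.

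Synthesis separated the chromosome 12 alpha tubulins from the rest. The synthesis rate, in a unit the file headers do not name, was 3.44-fold higher in STM2457 for TUBA1A (7.60 against 26.1), 2.64-fold for TUBA1B (510.1 against 1347) and 1.87-fold for TUBA1C (277.2 against 518.3). In DMSO, only 1.82% of all genes had a lower synthesis rate than TUBA1A, against 95.2% for TUBA1B and 86.8% for TUBA1C. The 3.44-fold of TUBA1A thus starts from a rate near the lowest of all genes. In all, 3 of 9 tubulins were past 1.5-fold higher and 0 lower, against 12.6% higher and 13.2% lower over all genes. The other 6 had log2 synthesis ratios between -0.15 (TUBB6) and 0.05 (TUBA4A). TUBB2B, for instance, had 242.1 in DMSO and 244.0 in STM2457, and TUBB4B had 547.3 and 559.9. The libraries came from bulk RNA, so fewer cells making an mRNA and less of it made per cell cannot be told apart.

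High synthesis ratios went with long DMSO half-lives across the table. Genes with a DMSO half-life of 30 h or more (515 genes) had a median log2 synthesis ratio of 1.31, with quartiles of 0.91 and 1.68, against -0.06 over all genes. TUBA1A, TUBA1B and TUBA1C, at 1.78, 1.40 and 0.90, belong to that set. ACTG1, the cytoplasmic gamma actin, was at the ceiling in both treatments and had 1.58. Both quantities are estimated together for each gene, and what this contributes to the ratios was not tested.

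**Figure D3:**
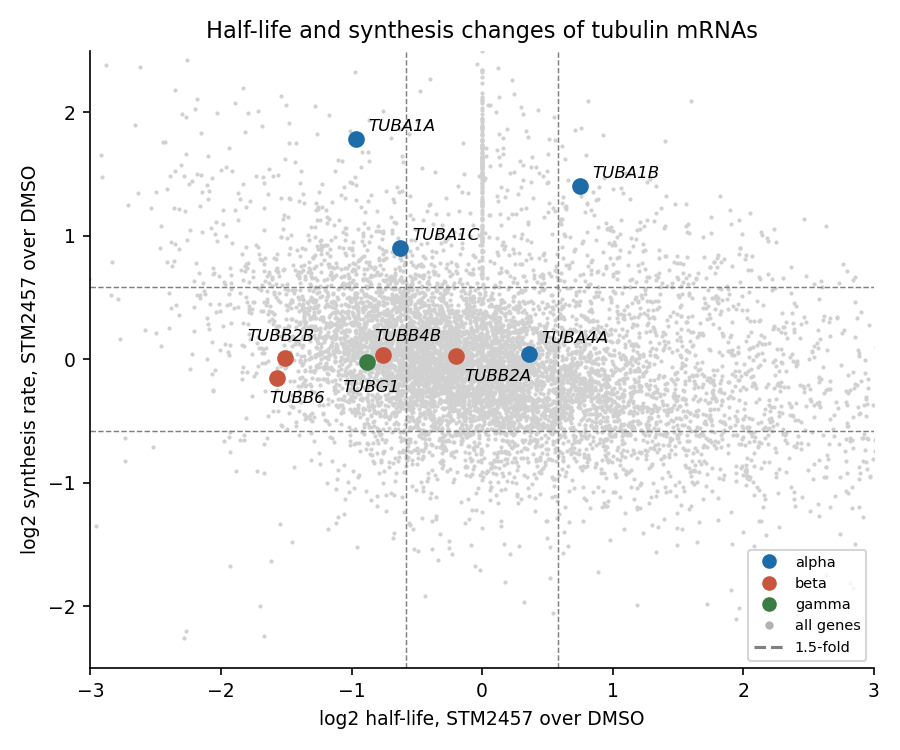
Log2 ratio of half-life (x) against log2 ratio of synthesis rate (y), STM2457 over DMSO, for tubulins (coloured) and all genes (grey); dashed lines mark 1.5-fold, and 443 genes lie outside the axes. Beta tubulins and TUBG1 spread along the x axis near a synthesis ratio of 0, and TUBA1A, TUBA1B and TUBA1C sit above 0.90.

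The implied steady-state abundance, synthesis rate divided by decay rate, went down for 4 tubulins and up for 2 past 1.5-fold, against 24.7% and 28.3% of all genes. TUBB6 had 0.303-fold its DMSO abundance, TUBB2B 0.353-fold, TUBG1 0.533-fold and TUBB4B 0.604-fold. These are end points. Had the fitted STM2457 rates held for the 6 h between compound and the last harvest, TUBB6 would have reached 0.598-fold and TUBB2B 0.700-fold of the DMSO level. TUBA1B had 4.44-fold and TUBA1A 1.76-fold. Both exceed the most that 6 h of synthesis could give with no decay at all, which is 1.27-fold for TUBA1B and 1.21-fold for TUBA1A. Of all genes, 23.4% exceed that bound, and of the 515 genes with a DMSO half-life of 30 h or more, which include TUBA1A and TUBA1B, 75.1% do.

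Near-identical tubulins took different values. TUBB2A and TUBB2B, neighbours on chromosome 6, were 98.2% identical over 1335 coding bases, with 24 mismatches, yet TUBB2A had a log2 half-life ratio of -0.20 and TUBB2B of -1.51. TUBA1A, TUBA1B and TUBA1C were 96.3% to 97.3% identical to each other, with log2 ratios of -0.96, 0.75 and -0.63. Between classes, alpha and beta coding sequences were 54.9% to 56.8% identical. The libraries read 3′ ends, so the last 300 bases of the transcripts bear on whether reads can be told apart. There, TUBB2A and TUBB2B shared no run longer than 8 bases. TUBB2A and TUBB4B shared a run of 32 bases, and TUBA1A and TUBA1B one of 84 bases. The assignment of reads from such runs stays unknown, not given in the sources used here. Values of TUBA1A and TUBA1B are therefore uncertain, and without both the median log2 ratio of the other 7 was -0.76. TUBA1A and TUBA1C also overlap on opposite strands, as do TUBA4A with STK16, TUBB2B with PSMG4, TUBB6 with AFG3L2 and TUBG1 with RETREG3. TUBA1B and TUBB4B overlap opposite-strand genes that had no row in the table. Whether counting used strand is not given, so those values are uncertain too.

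The coding sequences were then searched for DRACH, the context in which m6A occurs on mRNA. DRACH stands for 18 words of 5 bases on the mRNA strand: A, G or T, then A or G, then A and C, then A, C or T. A motif was counted as far where its central A lay at least 100 nt from every exon junction, since m6A is known to be kept away from junctions. These motifs come from the sequence, and m6A itself was not measured here. The 8 alpha and beta tubulins held 13 (TUBB6) to 21 (TUBB4B) far coding motifs. The table's median was 3, and 25.2% of genes had 10 or more. Among 1103 genes with coding sequences of 1200 to 1500 nt, 20.5% did. Each of these alpha and beta genes has 4 exons, and outside TUBA1C the last carries 72.1% (TUBA4A) to 79.3% (TUBB6) of the coding sequence. For TUBA1C it carries 62.4% of the longest coding sequence, which begins upstream and has 1557 nt, against 1347 nt in the principal transcript. TUBG1, with 11 exons, had 33 coding motifs in all and only 2 far from a junction.

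Some of these sites are shown with the motif in capitals, as 21 bases of the coding strand, with positions counted from 1 at the A of the start codon. The word GGACT, the most favoured form of the motif, occurred far from a junction in TUBA4A (A at position 1034) and in TUBB4B (position 427), and 28.8% of genes had at least 1. A GGACC site at position 671 was the same in TUBB2A, TUBB2B and TUBB6. The pair of lines for position 608 shows the only far coding site that differed between TUBB2A and TUBB2B, present in TUBB2B.
TUBA4A, position 1034: cagtttgtGGACTggtgcccc
TUBB4B, position 427: gggtggggGGACTgggtctgg
TUBB6, position 671: acctacggGGACCtcaaccac
TUBB2A, position 608: tactccattgataacgaggcc
TUBB2B, position 608: tactgcatTGACAacgaggcc
The other 17 far coding motifs of TUBB2A and TUBB2B stood at the same positions in both. Outside the coding sequence, the 3′ untranslated region held 4 far motifs in TUBB2A and 7 in TUBB2B. The half-lives of TUBB2A and TUBB2B in STM2457 were 8.59 and 6.66 h, and those in DMSO 9.85 and 19.0 h.

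Genes rich in far coding motifs were more often longer-lived than shorter-lived, unlike the tubulins among them. Of 2174 genes with 10 or more such motifs, 45.7% were longer-lived and 10.6% shorter-lived, with a median log2 ratio of 0.48. Of the 8 tubulins in that class, 1 was longer-lived and 5 shorter-lived, with a median of -0.69. The class as a whole was short-lived in DMSO, with a median of 2.80 h, and only 196 of its genes had a DMSO half-life at least that of TUBG1. Among those 196, again picked on the denominator of the ratio, 41.3% were shorter-lived and 30.1% longer-lived, with a median of -0.38. In that subset, which includes the 8 tubulins, shorter-lived genes thus outnumbered longer-lived ones, 81 to 59. Over all 2989 genes in that range of DMSO half-life, 40.0% were shorter-lived and 24.6% longer-lived. TUBG1, with 2 far motifs, was shorter-lived, as were 31.5% of the 2522 genes with 1 to 3.

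**Figure D4:**
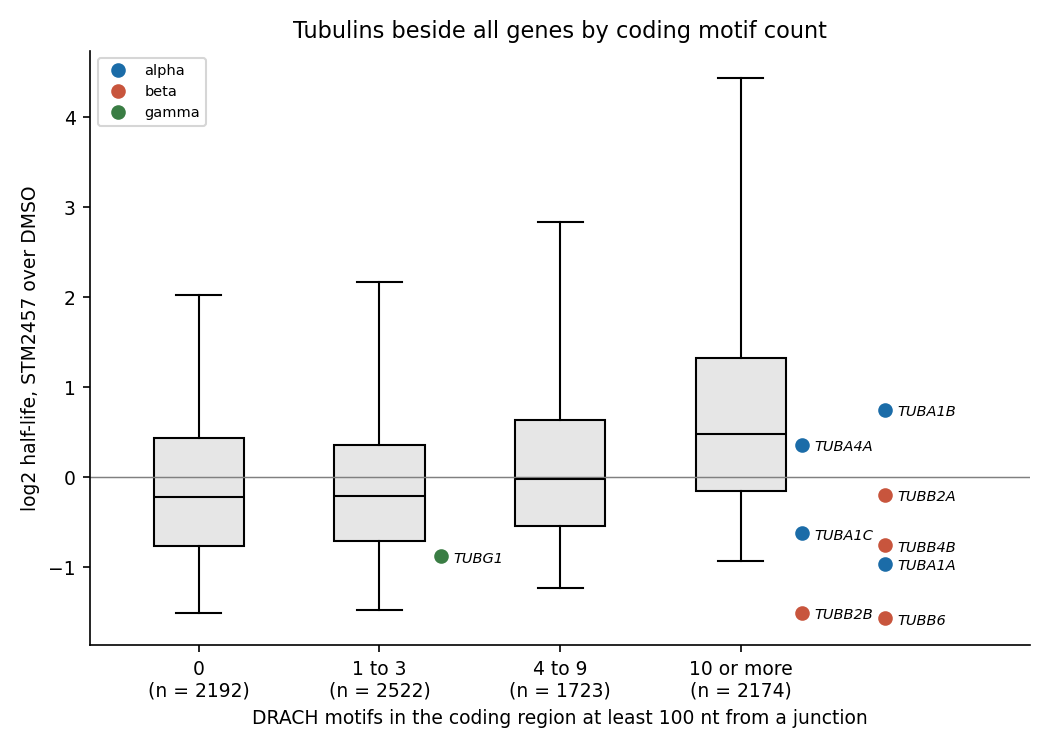
Log2 half-life ratio, STM2457 over DMSO, by the number of far coding DRACH motifs, for all genes (boxes: quartiles and median; whiskers: 5th to 95th percentile) and for tubulins (points beside their class). With 10 or more motifs the median of all genes is 0.48, and 7 of 8 tubulins lie below it. For the 196 of these genes with a DMSO half-life at least that of TUBG1, the median is -0.38. Those 196 are picked on the denominator of the ratio.

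Of the machinery of tubulin mRNA autoregulation, 13 of 15 listed genes were in the table, with a median log2 ratio of -0.29: 5 were shorter-lived, 1 was longer-lived and 7 did not pass 1.5-fold, against 24.9% shorter-lived and 28.5% longer-lived over all genes. With both half-lives between 0.5 and 24 h, which left 11 genes and removed NACA and BTF3, this median was -0.52. TTC5, which recognises the nascent tubulin chain, went from 4.24 to 2.65 h, 1.60-fold shorter. SCAPER, the adaptor, had 2.07 and 2.05 h. CNOT11 and CNOT1, subunits of the CCR4-NOT deadenylase, were 1.66-fold and 1.63-fold shorter-lived. At the other end, BTF3 had 24.5 and 34.1 h, within 1.5-fold, and NACA went from 45.4 h to the ceiling; both form the nascent polypeptide-associated complex, a general ribosome-bound factor.

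Tubulin-folding genes (cofactors, the CCT chaperonin and prefoldin) had a median close to that of the tubulins, -0.75, with 11 of 19 shorter-lived, 4 longer-lived and 4 within 1.5-fold. Over all genes, 24.9% were shorter-lived and 28.5% longer-lived. Among those at least as long-lived in DMSO as TUBG1, 40.0% were shorter-lived and 24.6% longer-lived. The list's median DMSO half-life was 15.9 h. PFDN4 and PFDN2, prefoldin subunits that hand unfolded tubulin and actin to the chaperonin, were 4.74-fold and 3.37-fold shorter-lived. TBCC, a cofactor that completes assembly of the dimer, went the other way, from 0.649 to 12.5 h. TBCB, which binds alpha tubulin, went from 17.8 h to the ceiling. The fits of TBCC and TBCB imply 8.58-fold and 4.04-fold their DMSO abundance, above limits of 3.85-fold and 1.24-fold for 6 h of synthesis with no decay.

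Among other tubulin genes, 4 of 12 were in the table, with 2 shorter-lived, 0 longer-lived and 2 within 1.5-fold. The shares over all genes were 24.9% and 28.5%, and the median DMSO half-life of these 4 was 3.30 h. TUBB3, the neuronal beta isotype, went from 12.6 to 5.18 h, 2.43-fold shorter. TUBE1, epsilon tubulin, went from 2.54 to 1.56 h. TUBB4A, a brain isotype, had 4.05 and 3.40 h, and TUBD1, delta tubulin, had 1.70 and 1.85 h. The centriolar tubulins TUBE1 and TUBD1, and also the beta isotype TUBB4A, were thus shorter-lived in DMSO than any of the 9 listed tubulins.

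Genes of the gamma-tubulin complex had a median of -0.02, with 2 of 11 shorter-lived, 2 longer-lived and 7 within 1.5-fold, both counts below the shares over all genes (24.9% and 28.5%). With both half-lives between 0.5 and 24 h, which left 8 genes and removed only genes above 24 h in STM2457, the median was -0.32. MZT1, a small subunit of the ring complex, was 2.61-fold shorter-lived, and NEDD1, which brings the complex to spindles, 2.23-fold. TUBGCP2, a core subunit, went from 15.5 to 24.7 h, and MZT2A from 40.6 h to the ceiling. Tubulin-modifying enzymes were spread widely, 4 of 11 longer-lived and 4 shorter-lived (median 0.39), against 28.5% and 24.9% over all genes. TTLL4, a polyglutamylase, and VASH1, which removes the last tyrosine of alpha tubulin, were 3.23-fold and 3.09-fold longer-lived. TTLL12 was 2.20-fold shorter-lived and AGTPBP1, a deglutamylase, 2.07-fold.

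Microtubule-binding proteins had a median of -0.37, with 8 of 25 shorter-lived, 4 longer-lived and 13 within 1.5-fold. The shares over all genes were 24.9% shorter-lived and 28.5% longer-lived. CLASP2, which stabilises growing ends, and KATNA1, the severing subunit of katanin, were 2.00-fold and 1.99-fold shorter-lived. MAP1S went from 2.97 h to the ceiling, and CLIP1, a plus-end protein, from 3.49 to 10.2 h. The actins in the table did not pass 1.5-fold: ACTB had 13.1 and 14.1 h, and ACTG1 was at the ceiling in both. Besides TBCC and TBCB, the fits of NACA, BTF3, TUBGCP2, MZT2A, TTLL4, VASH1, MAP1S, CLIP1 and ACTG1 imply abundances above the limit for 6 h of synthesis, 11 of the 28 genes named from these lists, against 23.4% of all genes; the 28 are mostly the ends of each list by half-life ratio, so this count reflects how they were picked. TUBB3 and NACA overlap other genes of the table on the same strand, CNOT1, TBCB, PFDN2, TUBGCP2, VASH1 and KATNA1 do so on the opposite strand, and MZT2A has a near-identical copy, MZT2B; their values are uncertain.

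**Figure D5:**
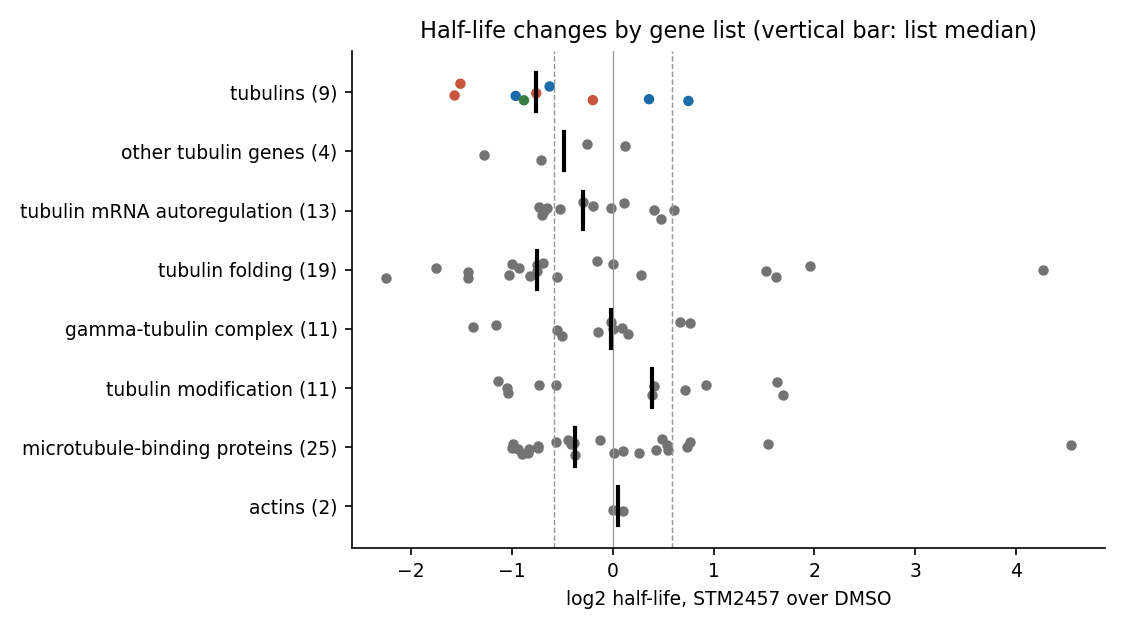
Log2 half-life ratio, STM2457 over DMSO, of each gene (points) in the tubulins and 7 related lists, with the list median as a vertical bar, the number of genes in parentheses and dashed lines at 1.5-fold. The medians of tubulins and tubulin-folding genes are -0.76 and -0.75, and that of tubulin-modifying enzymes is 0.39.

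The genes most like the tubulins as a group were found by distance from the tubulins' median half-lives, 14.3 h in DMSO and 8.59 h in STM2457, on log2 scales over the 2 treatments. The nearest 3 were NSA2 (14.6 and 8.51 h), FAM49B (14.7 and 8.69 h) and PSME4 (14.7 and 8.65 h). Their log2 synthesis ratios were 0.54, 0.50 and 0.12, against a median of 0.03 for the tubulins.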

How the data were processed

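SLAM-seq was run on RNA of 18 HEK293T samples; 3′ mRNA libraries were made after alkylation, per the labels' protocols. FastQC 0.11.9, STAR 2.7.8a and GRCh38.p12 are named per the submitters' processing notes. The fitting tool, gene filter and libraries behind each fit stay unknown, not given in the sources used here. Per gene, the authors deposited half-lives, synthesis rates and log2 ratios; log2 ratios recomputed from the deposited values differed by at most 1.27e-14, and the 3 genes with an STM2457 synthesis rate of 0 have no synthesis ratio. No count is given, so depth and its precision are unknown.

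Genes past 1.5-fold were counted; no test was possible with 1 value per treatment. A half-life within 1e-06 of the largest counted as at the ceiling. Of the identifiers, 8982 matched GENCODE release 29 without version. Motifs were counted in the transcript with the longest complete coding sequence; 99.3% began with ATG. Identity came from global alignment (Biopython 1.88). Python 3.11.15, NumPy 2.4.6, pandas 2.3.3 and Matplotlib 3.10.9 were used, and the calling and motif counting were tested on simulated data.

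Members and lists were chosen with earlier results of these data known. Named were all tubulins, METTL3, the 2 highest and 2 lowest ratios of each related list (all genes in lists of up to 4), TBCC, TTC5, SCAPER, ACTB and ACTG1, and the 3 nearest genes. STK16, PSMG4, AFG3L2, RETREG3, KRT8, PAX2 and COL1A1 are named only for overlap or presence. Alternatives changed the size rule, centring, range of half-lives, summary, members, junction distance and motif.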

Additional observations from a re-analysis of the deposited data

How the results depend on the processing

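No paired analysis was possible because the table holds 1 value per gene and treatment, and leaving out samples was not possible for the same reason. The count of shorter-lived tubulins was 6; it was 2 at 2-fold and stayed within 1.5 times of 6 in the other alternatives run. The count of longer-lived tubulins rests on TUBA1B, at the ceiling in STM2457: it was 2 with log2 ratios past 0.32, and 0 at 2-fold, with DMSO and STM2457 values restricted to 0.5 to 24 h, without genes at the ceiling, or with half-lives over 24 h set to 24 h, an alternative chosen after seeing the data. With half-lives over 24 h set to 24 h, the median log2 half-life ratio was -0.28, against -0.76. Shares over all genes were computed only at 1.5-fold, with no cap or restriction. The counts in these alternatives therefore have no share over all genes beside them. Leaving out each tubulin in turn, the median log2 ratio ranged from -0.82 to -0.69 for half-lives, from 0.03 to 0.04 for synthesis and from -0.45 to 0.05 for implied abundance. The median for alpha tubulins alone was -0.13 for half-lives, 1.15 for synthesis and 0.61 for implied abundance, against -0.76, 0.03 and -0.17 for all 9. The median implied abundance ratio was -1.11 for beta tubulins, -0.91 for TUBG1 and -0.82 for the 6 tubulins with both half-lives between 0.5 and 24 h. With GGACT as the only motif, the median number of far coding motifs was 0 in place of 16. For tubulin-modifying enzymes the median changed sign, from 0.39 to -0.09, with both half-lives between 0.5 and 24 h; the same restriction took the autoregulation list from -0.29 to -0.52 and the gamma-tubulin complex from -0.02 to -0.32. The restriction left 10 of 11 tubulin-modifying enzymes, 11 of 13 autoregulation genes and 8 of 11 genes of the gamma-tubulin complex. The genes it removed from these lists had half-lives over 24 h in STM2457. Each had a ratio above the median of its list, so their removal lowered these medians. The causes of the other shifts were not tested. Without replicates or counts, no size above can be set against an error.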

Other observations

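A pair of beta tubulin pseudogenes, chosen after their values were seen, also had rows in the table. TUBBP1, a processed pseudogene, went from 7.22 h in DMSO to 6.55 h under STM2457, a log2 ratio of -0.14. TUBBP5, an unprocessed pseudogene, had 4.22 and 6.89 h, a log2 ratio of 0.71, opposite in sign to all 4 listed beta tubulins. Both resemble coding beta tubulins in sequence, and the sharing of reads between such copies stays unknown, not given in the sources used here.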
